A study of Mus musculus with 16 samples.

Results

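Serpina7, Slc5a7 and St18 are 3 of the 24411 gene symbols counted in pancreas RNA of lean and obese mice, and 3 of the 13660 that passed the filter on low counts and were tested. They were chosen by the large fold change of their counts in obese Lep ob/ob mice over wild-type (WT) mice, so that their levels in these groups are given here as a description, without a test. Ins2, which encodes insulin, was followed beside them as a measure of islet content. RNA was made from the whole pancreas of 16 male C57BL6/J mice at 12 weeks of age, 1 library per mouse, all on standard chow. The 5 WT and 7 Lep ob/ob mice had control water. The other 4 mice were Lep ob/ob mice that received an antagonist of the receptors of cholecystokinin (CCK) in their water for 6 weeks (CCKRi), namely proglumide at 0.1 mg/mL in mice 69 and 72 and lorglumide at 0.05 mg/mL in mice 74 and 76. Lep ob/ob mice lack functional leptin in every cell from birth and overeat, so that body weight and genotype cannot be told apart, and no WT mouse received an antagonist. WT mice weighed 27.7 ± 3.22 g (SD, n = 5) at collection. Untreated Lep ob/ob mice weighed 51.0 ± 1.98 g (SD, n = 7) and CCKRi mice 54.8 ± 2.22 g (SD, n = 4). The labels give WT mice as bred in house and Lep ob/ob mice as purchased, whereas the methods of the study give both as purchased, so that it is not settled whether origin goes with genotype.

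The labels give each library a batch code. The mice of batch A were 3 WT and 4 untreated Lep ob/ob, and those of batch B were 2 WT, 3 untreated Lep ob/ob and all 4 CCKRi. Between 9.87 and 34.5 M reads per mouse fell on genes, with 19.2 to 34.5 M in batch A and 9.87 to 15.9 M in batch B. Markers of acinar cells, the main cell type of the pancreas, were abundant in every mouse, but their sum over 12 genes went with batch and group. It was 13100000 to 14500000 normalized counts for WT and 8736000 to 13160000 for untreated Lep ob/ob mice of batch A. In batch B it was 3802000 to 6809000, 3437000 to 8181000 and, for CCKRi mice, 1890000 to 5582000. A normalized count is the number of reads on a gene divided by the size factor of that mouse (0.617 to 1.44). Adipocyte and macrophage markers varied widely between mice. The sum of 9 adipocyte markers ranged from 1176 to 4250 normalized counts for WT, from 1639 to 41690 for untreated Lep ob/ob and from 5235 to 32370 for CCKRi mice, and was highest in mice 463, 69, 461 and 417.

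The genes belong to different systems. Serpina7 encodes thyroxine-binding globulin, a member of the serpin family that inhibits no protease and instead carries thyroid hormone in the blood. It is made mostly by the liver. Slc5a7 encodes the high-affinity choline transporter, which takes choline back into cholinergic nerve endings for the synthesis of acetylcholine. St18, also called Myt3, encodes a zinc finger transcription factor of the MYT family with Myt1 and Myt1l, and these factors act in developing and mature islet endocrine cells and in neurons.

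In the GRCm38 build (mm10) with the GENCODE vM21 annotation, Serpina7 (ENSMUSG00000031271.14) lies at chrX:139079257-139085236 on the minus strand, with 3 transcripts whose exons merge into 6. Slc5a7 (ENSMUSG00000023945.7) lies at chr17:54273590-54299034, also on the minus strand, with 3 transcripts and 10 merged exons. St18 (ENSMUSG00000033740.17) lies at chr1:6487231-6860940 on the plus strand, with 13 transcripts and 29 merged exons. No other annotated gene overlaps them, and none of the 50-base stretches of their transcripts occurs in a transcript of another gene. Reads are therefore not split with a near copy. Per kilobase of merged exon, the mean level in WT was 0.870 normalized counts for Serpina7, 0.603 for Slc5a7 and 5.23 for St18. In untreated Lep ob/ob mice it was 60.8 for Serpina7, 32.7 for Slc5a7 and 20.9 for St18, and in CCKRi mice 121.6, 26.7 and 27.7.

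The 250 bases before the annotated start of Serpina7 and Slc5a7 are shown because these genes had almost no reads in lean mice and many in obese mice. Both sequences come from RefSeq (GRCm38.p6), read 5′ to 3′ on the strand of the gene. Capitals mark matches to the E-box letters CANNTG, which are bound by basic helix-loop-helix factors, and to AAAGTTT, the core bound by MYT factors, on either strand. The Serpina7 window is chrX:139085237-139085486 (minus strand) and the Slc5a7 window is chr17:54299035-54299284 (minus strand). RefSeq gives Serpina7 a second start, whose window chrX:139085220-139085469 (minus strand) overlaps this one and is not shown. St18 had no entry in the promoter table.
Serpina7: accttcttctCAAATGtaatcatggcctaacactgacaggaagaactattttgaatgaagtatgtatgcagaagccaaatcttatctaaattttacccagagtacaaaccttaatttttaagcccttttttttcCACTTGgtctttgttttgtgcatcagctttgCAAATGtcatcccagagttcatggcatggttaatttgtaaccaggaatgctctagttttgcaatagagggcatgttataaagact
Slc5a7: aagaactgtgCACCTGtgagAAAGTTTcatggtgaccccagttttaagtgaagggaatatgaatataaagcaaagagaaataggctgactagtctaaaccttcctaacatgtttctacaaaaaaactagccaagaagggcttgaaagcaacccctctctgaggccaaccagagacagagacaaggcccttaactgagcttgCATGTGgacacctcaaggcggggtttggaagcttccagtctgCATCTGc
Counted back from the start, E-box matches begin at -240, -116 and -85 in Serpina7 and at -240, -49 and -7 in Slc5a7. In the other Serpina7 window they begin at -133 and -102. At least 1 such match was present in 66.2% of 32851 promoter windows of the same length. The AAAGTTT match begins at -230 in Slc5a7 and was present in 4.198% of windows, and Serpina7 had none. Neither window held TGANTCA (AP-1), TGACGTCA (CRE), TAATTA or TAATGA (homeodomain factors), TGTTTAC (FOXA) or the HNF1 site on either strand, which were present in 6.75%, 1.55%, 4.84%, 8.59%, 3.17% and 0.0609% of windows. These are matches of letters only.

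Serpina7 was close to absent in lean pancreas. WT mice 5489 and 5492 had 0 reads, which allows at most 4.04 and 3.53 normalized counts at 3 reads, and mice 5494, 58 and 59 had 2, 4 and 2 reads, or 2.00, 6.49 and 2.16 normalized counts. In the 7 Lep ob/ob mice the lowest level was 40.6, the median 146 and the highest 279 normalized counts, and in CCKRi mice 69, 72, 74 and 76 the levels were 41.7, 285, 374 and 490. All 11 obese mice thus lay above all 5 lean mice, and 3 of 4 CCKRi mice lay above every untreated Lep ob/ob mouse whereas mouse 69 lay near the lowest. Group means were 2.13 ± 2.65 (SD, n = 5) for WT, 149 ± 84.5 (SD, n = 7) for untreated obese and 298 ± 190 (SD, n = 4) for CCKRi mice, a ratio of 69.9 between untreated obese and WT mice. Because only 8 reads in all fell on Serpina7 in WT, the size of this ratio is imprecise, and intervals and limits of this kind cover counting error only.

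Untreated obese mice of the batches did not overlap for Serpina7. The 4 Lep ob/ob mice of batch A had 146, 178, 279 and 220 normalized counts and the 3 of batch B had 40.6, 65.7 and 113. All CCKRi mice were in batch B, so that within this batch 4 CCKRi mice with a mean of 298 were set against 3 Lep ob/ob mice with a mean of 73.0 ± 36.6 (SD). In batch B the fold over the 2 WT mice was 16.9 for Lep ob/ob and 68.8 for CCKRi mice. The lean to obese step of Serpina7 was thus present within each batch, and its size differed between them.

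Slc5a7 was likewise close to absent in lean pancreas but spread widely among obese mice. WT mice 5489, 5492, 5494, 58 and 59 had 2, 7, 5, 0 and 1 reads, or 2.69, 8.24, 5.00, 0 and 1.08 normalized counts, where 0 reads allow at most 4.87. In Lep ob/ob mice the lowest level was 25.4, the median 68.7 and the highest 666, and in CCKRi mice 69, 72, 74 and 76 the levels were 352, 90.4, 88.4 and 72.7. No obese mouse overlapped a lean one, but the 7 untreated obese mice differed among themselves more, relative to their mean, than for the other genes, with 3 of them (417, 461 and 463) at 198.1, 257.3 and 666 and the other 4 at or below 68.7. Group means were 3.40 ± 3.29 (SD, n = 5) for WT, 184 ± 231 (SD, n = 7) for untreated obese and 151 ± 134 (SD, n = 4) for CCKRi mice, a ratio of 54.3 between untreated obese and WT mice. In batch A the ratio was 14.1, and in batch B the WT mice had 1 read in all, so that no ratio is given.

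St18 was already present in lean pancreas and rose less. WT mice 5489, 5492, 5494, 58 and 59 had 25.6, 42.4, 20.0, 48.7 and 32.4 normalized counts. Lep ob/ob mice had 57.2 at the lowest, 154 at the median and 206 at the highest, and CCKRi mice 69, 72, 74 and 76 had 46.4, 136, 236 and 298. All 7 untreated obese mice lay above the lean mice, whereas CCKRi mouse 69 lay within their range. The means were 33.8 ± 11.8 (SD, n = 5), 135 ± 55.8 (SD, n = 7) and 179 ± 111 (SD, n = 4). Lep ob/ob mice thus had 3.99 times the WT mean, with 5.47 times in batch A and 2.48 times in batch B.

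Ins2 rose in the same mice. Its level was 11610, 12110, 12670, 11520 and 8549 normalized counts in WT mice, in the order above. Lep ob/ob mice had 22740 at the lowest, 82910 at the median and 117800 at the highest, and CCKRi mice 69, 72, 74 and 76 had 9087, 41640, 53810 and 114500. The mean was 6.42 times that of WT in Lep ob/ob mice, with 8.37 times in batch A and 3.37 times in batch B, and CCKRi mouse 69 again lay within the lean range. The rise of Ins2 passed the test (log2 fold change 2.49 ± 0.47 (SE), adjusted p = 0.00327, edgeR quasi-likelihood test). Ins2 was not alone, since 11 of 12 genes expressed by all islet endocrine cells (pan-endocrine markers) also rose, against 5.93% of all genes called higher. In bulk tissue, more cells of a type and more RNA per cell cannot be told apart. From single-cell RNA of islets, the study reports that Ins1 and Ins2 fell in beta cells as obesity progressed. A ratio to Ins2 is therefore not the same as a ratio to islet cells.

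**Figure D1:**
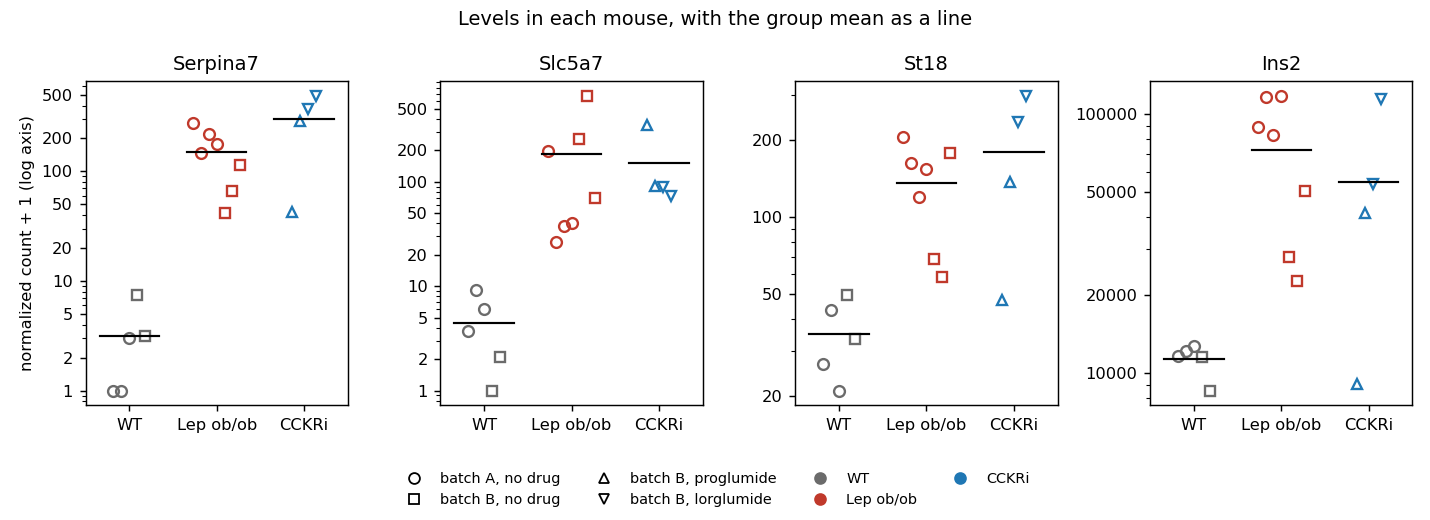
Normalized counts plus 1 of the 3 genes and Ins2 on log axes, 1 symbol per mouse, by group, with batch and drug as symbol shape and the group mean as a line. All obese mice lie above all lean mice for Serpina7 and Slc5a7, whereas CCKRi mouse 69 falls within the lean range for St18 and Ins2.

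To place the 3 rises among all genes, the 13660 genes tested were ranked by log2 fold change in the model with group and batch. The order ran from the largest rise to the largest fall. For Lep ob/ob against WT, Serpina7 was at rank 9 with 6.13 ± 0.79 (SE), Slc5a7 was at rank 16 with 5.25 ± 0.99, Ins2 at rank 168 and St18 at rank 335 with 1.97 ± 0.44. The rule fixed these positions. In this comparison 9.07% of genes passed an adjusted p of 0.05, with 5.93% higher and 3.14% lower in obese mice.

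The genes were then expressed per Ins2 count, to ask whether each rose more or less than islet content as read from Ins2. For Serpina7, WT mice 5489, 5492, 5494, 58 and 59 had 0, 0, 0.158, 0.563 and 0.253 reads per 1000 Ins2 reads. Lep ob/ob mice had 1.25 at the lowest, 2.22 at the median and 3.14 at the highest, and CCKRi mice 69, 72, 74 and 76 had 4.59, 6.85, 6.95 and 4.28. The 3 groups did not overlap, with each Lep ob/ob mouse above each WT mouse and each CCKRi mouse above each Lep ob/ob mouse. The step from WT to Lep ob/ob goes with the choice of the gene. How many of all genes separate the groups in this way per Ins2 was not counted, so the separation is not read as particular to Serpina7. The mean ratio was 0.195 ± 0.233 (SD, n = 5), 2.16 ± 0.762 (SD, n = 7) and 5.67 ± 1.43 (SD, n = 4). Unlike the level itself, the ratio of untreated obese mice was similar in the batches, with means of 2.14 in batch A and 2.19 in batch B.

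For St18 the ratio to Ins2 behaved differently. It was 2.20, 3.497, 1.58, 4.22 and 3.80 per 1000 Ins2 reads in the WT mice. Untreated obese mice had 1.31 at the lowest, 2.31 at the median and 3.49 at the highest, and there were 5.11, 3.27, 4.39 and 2.60 in CCKRi mice 69, 72, 74 and 76. The 3 groups overlapped, and the Lep ob/ob mean was 0.695 times that of WT. Within batch B, the 3 Lep ob/ob mice (2.42, 2.52 and 3.49) lay below the 2 WT mice.

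The Slc5a7 ratio to Ins2 ranged from 0.218 to 29.3 per 1000 Ins2 reads in Lep ob/ob mice, with a median of 1.36, and from 0.635 to 38.7 in CCKRi mice. In WT mice it was 0.232, 0.680, 0.395, 0 and 0.127. The groups overlapped, because Lep ob/ob mice 441, 472 and 447 of batch A, which had much Ins2 and little Slc5a7, had 0.218, 0.337 and 0.443. The ratio fold of Lep ob/ob over WT was 1.85 in batch A, where the groups overlapped, and in batch B all 3 Lep ob/ob mice lay above both WT mice.

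**Figure D2:**
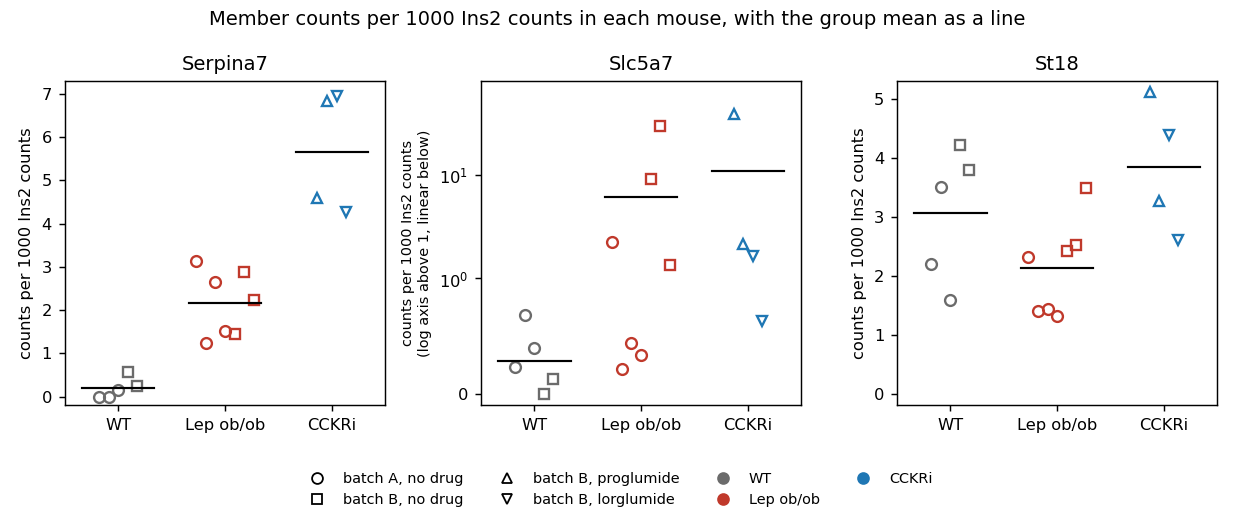
Counts of each gene per 1000 Ins2 counts, 1 symbol per mouse, with the group mean as a line; the Slc5a7 axis is linear below 1 and logarithmic above. For Serpina7 the 3 groups form separate ranges (0 to 0.563, 1.25 to 3.14 and 4.28 to 6.95), and for St18 they overlap. The share of all genes with separate ranges was not counted.

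To compare mice given a CCK receptor antagonist with untreated obese mice, all 16 mice entered 1 model with group and batch. The untreated obese mice are the same ones whose levels chose the genes. None of the 3 genes passed, against a background of 0.0586% of all genes tested (8 of 13660), with 0.0293% called higher and 0.0293% called lower. Serpina7 had a log2 fold change of 1.88 ± 0.62 (SE, adjusted p = 0.27, edgeR quasi-likelihood test), at rank 10 of all genes from the largest rise down. It was the only one of the 3 with an unadjusted p under 0.05 (0.00769). St18 had 0.61 ± 0.49 (adjusted p = 0.554) and Slc5a7 had -0.87 ± 0.74 (adjusted p = 0.58). By DESeq2 with batch the adjusted p values were 0.381, 0.56 and 0.804 in the same order, so that again none passed. Beside these values, all 8 macrophage markers were lower in CCKRi mice (median log2 fold change -1.22), none of them called but each at an unadjusted p under 0.05, as were 14.3% of all genes. Acinar markers had a median of -0.47, with 9 of 12 lower and none called. Their part in the 3 genes was not tested.

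Within batch B, 4 CCKRi and 3 Lep ob/ob mice were compared by exact two-sided permutation tests, in which the smallest possible p is 0.0286. Over 7 such tests, the ratio of Serpina7 to Ins2 reached this smallest p. It was higher in CCKRi mice by 1.39 on the log2 scale, in 12 of 12 pairs of mice (exact p = 0.0286, 0.2 after Benjamini-Hochberg adjustment). The level of Serpina7 itself differed by 1.68 (exact p = 0.143), with 10 of 12 pairs higher. Set against the mean of the pan-endocrine markers in place of Ins2, the difference of Serpina7 was 1.22 (exact p = 0.0571). Serpina7 per Ins2 was thus higher in the CCKRi mice of this batch, but the difference did not pass the correction for 7 tests. How many of all genes differ per Ins2 in every pair was not counted. The other tests gave log2 differences of 0.71 for St18, -0.92 for Slc5a7 and 0.30 for Ins2 and, per Ins2, 0.42 for St18 and -1.22 for Slc5a7, with exact p from 0.229 to 0.743.

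The antagonists were given at different doses, so their values stand side by side without a comparison. With proglumide, Serpina7 was at 41.7 and 285 normalized counts, Slc5a7 at 352 and 90.4, and St18 at 46.4 and 136. With lorglumide, Serpina7 was at 374 and 490, Slc5a7 at 88.4 and 72.7, and St18 at 236 and 298. Of the 4 CCKRi mice, mouse 69 was the lowest in Serpina7, St18 and Ins2 and the highest in Slc5a7.

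CCKRi mice were also set against WT, but these values do not stand apart from the choice of genes. The WT mice are those that chose them, the batch term of the model rests on the untreated obese mice that chose them since all CCKRi mice are in batch B, and Serpina7 and Slc5a7 met the filter on low counts only through obese mice. Nothing is read from the calls of the 3 genes, in a comparison where 5.57% of all genes tested were called, with 4.22% higher and 1.35% lower. The log2 fold change was 8.00 ± 0.88 (SE, adjusted p = 0.000108) for Serpina7, 4.38 ± 1.14 (adjusted p = 0.0304) for Slc5a7 and 2.58 ± 0.53 (adjusted p = 0.00699) for St18, by edgeR's quasi-likelihood test. With only CCKRi and WT mice in the fit it was 6.20 ± 1.07 (adjusted p = 0.0137) for Serpina7, 7.62 ± 1.18 (adjusted p = 0.00896) for Slc5a7 and 2.17 ± 0.62 (adjusted p = 0.101, edgeR) for St18, whose call was lost. Serpina7 and Slc5a7 were higher in each of the 4 CCKRi mice than in each WT mouse, and St18 in 3 of the 4. The share of all genes that lie apart in this way was not counted, so nothing is read from this either. Within batch B, with 4 CCKRi and 2 WT mice, no permutation test can go below 0.0667, and Serpina7 and Slc5a7 reached this value (exact, two-sided). When both drugs were fitted apart, the log2 fold change with proglumide and with lorglumide was 7.14 and 8.60 for Serpina7, 4.92 and 3.49 for Slc5a7 and 1.61 and 3.19 for St18. The difference between the drugs was not tested. The call of Slc5a7 against WT was lost when any of mice 5489, 58, 59, 417, 461 or 69 was left out (edgeR adjusted p from 0.0502 to 0.125).

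Holding Ins2 or the pan-endocrine markers fixed in the model changed the 3 genes in different ways. With log2 CPM (counts per M reads) of Ins2 as a covariate, the log2 fold change of Lep ob/ob against WT was 3.66 ± 0.73 (SE) for Serpina7, 7.48 ± 0.92 for Slc5a7 and -0.12 ± 0.36 for St18. With the pan-endocrine mean as covariate the values were 2.95, 7.75 and -0.46. The estimate of St18 was thus near 0 once islet markers were held fixed, that of Serpina7 remained above 0 and that of Slc5a7 grew. Ins2 hardly overlapped between lean and obese mice, so that these fits rest on the slope within groups. For CCKRi against WT, the values with Ins2 held fixed were 4.96 ± 0.78 for Serpina7, 6.72 ± 1.04 for Slc5a7 and 0.30 ± 0.40 for St18.

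**Figure D3:**
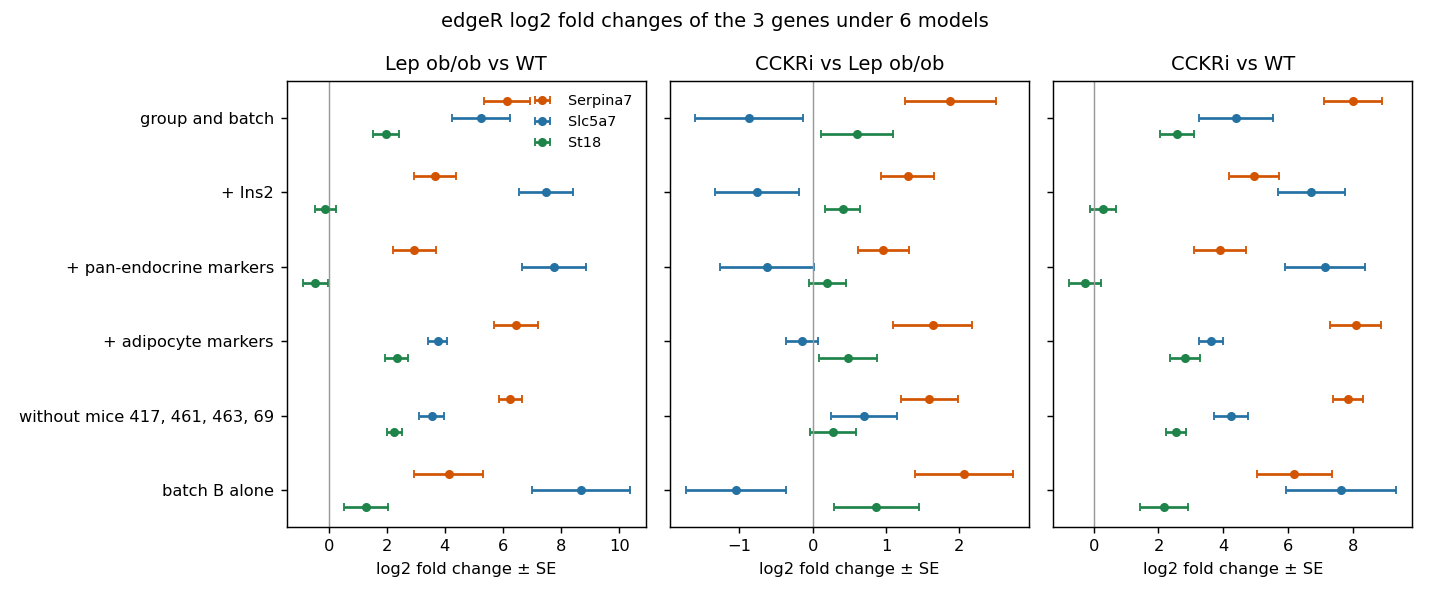
Log2 fold change ± SE of the 3 genes in the 3 comparisons under 6 edgeR models: group and batch, with Ins2, pan-endocrine or adipocyte markers added, without mice 417, 461, 463 and 69, and batch B alone. St18 sits near 0 with islet markers added (-0.12 and -0.46 for Lep ob/ob against WT), and Slc5a7 falls from 5.25 to 3.76 with adipocyte markers added.

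Across the 11 obese mice, Serpina7 and St18 followed Ins2 and Slc5a7 went against it. The permutations moved values freely between batches and between treated and untreated mice, so their p values do not test a relation within a batch or treatment. Pearson's r of log2 normalized counts with Ins2 was 0.74 for Serpina7 (permutation p = 0.00814, adjusted 0.0122 over 6 relations), 0.83 for St18 (permutation p = 0.00133, adjusted 0.00399) and -0.78 for Slc5a7 (permutation p = 0.00421, adjusted 0.00842). Spearman's rho was 0.54 (permutation p = 0.0943, adjusted 0.1415), 0.66 (0.0302, adjusted 0.0604) and -0.79 (0.00549, adjusted 0.0263) in the same order. By rank, only Slc5a7 with Ins2 thus passed after adjustment among these relations. Among the genes themselves, Serpina7 and St18 went together (r = 0.89, permutation p = 0.00049, adjusted 0.00294, rho = 0.76, permutation p = 0.00877, adjusted 0.0263). Slc5a7 and St18 went apart by r (r = -0.65, permutation p = 0.0311, adjusted 0.0374) but did not pass by rank (rho = -0.45, permutation p = 0.162, adjusted 0.195). Serpina7 and Slc5a7 passed by neither (r = -0.57, permutation p = 0.0698, rho = -0.35, permutation p = 0.285).

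In the 7 obese mice of batch B alone, r with Ins2 was 0.84 for Serpina7, 0.93 for St18 and -0.78 for Slc5a7. The exact permutation p was 0.0111, 0.000198 and 0.0248. The 4 obese mice of batch A are too few for a value. Of these, mice 441 and 472 had the most Ins2 (116600 and 117800) and the least Serpina7 (146 and 178). Mice 417 and 447 had less Ins2 (88900 and 82910) and more Serpina7 (279 and 220). Serpina7 thus did not rise with Ins2 in batch A. The relations rest on few mice. Without the 2 mice farthest from the median of Ins2 (463 and 69), r was 0.52 for Serpina7, 0.59 for St18 and -0.64 for Slc5a7, and none of these passed a permutation test. Without the 4 obese mice highest in adipocyte markers (463, 69, 461 and 417), r with Ins2 was -0.0055 for Serpina7, 0.17 for St18 and -0.72 for Slc5a7 in the 7 others, none past an exact permutation test. Serpina7 with St18 had r = 0.80 without mice 461 and 69 (permutation p = 0.00934, adjusted 0.056).

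Slc5a7 was also followed against adipocyte markers. The 4 obese mice with the most Slc5a7 (463, 69, 461 and 417) were the 4 with the highest sum of the 9 adipocyte markers, a pattern noticed after the values were seen. The sum was 41690, 32370, 12850 and 12680 normalized counts in these mice and 1639 to 9298 in the other 7 obese mice. From the lowest to the highest, the 11 obese mice stood in the same order for Slc5a7 as for the adipocyte sum, with the exception of mice 464 and 76, which changed places (68.7 and 72.7 for Slc5a7, 7338 and 5235 for the sum). The list holds Lep, the mutated gene itself, and its members did not move as 1. For Lep ob/ob against WT 1 of the 9 was called higher (Lep, by 5.38) and 1 lower (Cfd, by 3.15), against 5.93% and 3.14% of all genes. The median log2 fold change of the 9 was 1.44, against -0.02 over all genes, with 7 positive and 2 negative. An unadjusted p under 0.05 was reached by 6 of the 9, against 23.8% of all genes (edgeR). Without Lep and Cfd the sum was 9692 to 32610 in the same 4 mice and 1361 to 7063 in the other obese mice. Lean mice did not lie on the same line. At adipocyte sums between 1176 and 4250 the 5 WT mice had at most 8.24 normalized counts of Slc5a7, and at sums of 1639, 2168 and 2658 Lep ob/ob mice 441, 447 and 472 had 25.4, 36.7 and 39.7.

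With the mean of the adipocyte markers as a covariate, a choice made with the values in view, Slc5a7 had a log2 fold change for Lep ob/ob against WT of 3.76 ± 0.32 (SE) in place of 5.25 ± 0.99. It was 3.63 ± 0.33 with Lep and Cfd left out of the covariate. Without mice 417, 461, 463 and 69 it was 3.54 ± 0.44. For CCKRi against WT the values were 3.62 ± 0.36 with the covariate, 3.48 ± 0.37 with Lep and Cfd left out of it and 4.24 ± 0.51 without these mice. For CCKRi against Lep ob/ob they were -0.14 ± 0.22, -0.15 ± 0.22 and 0.70 ± 0.45, none past the test. Other marker lists were highest in the same 4 mice. The sum of macrophage markers was 16150, 5650, 7152 and 5602 normalized counts in mice 463, 69, 461 and 417 against 1464 to 3644 in the other obese mice. The sum of smooth muscle and stellate cell markers was 13960, 7134, 9357 and 8735 against 3457 to 4968, and that of lymphocyte and lymph node markers 806, 460.3, 398 and 296.1 against 34.3 to 213. Their part in the level of Slc5a7 was not tested. Serpina7 and St18 moved little under the same settings, with 6.44 and 2.34 for Lep ob/ob against WT under the adipocyte covariate.

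**Figure D4:**
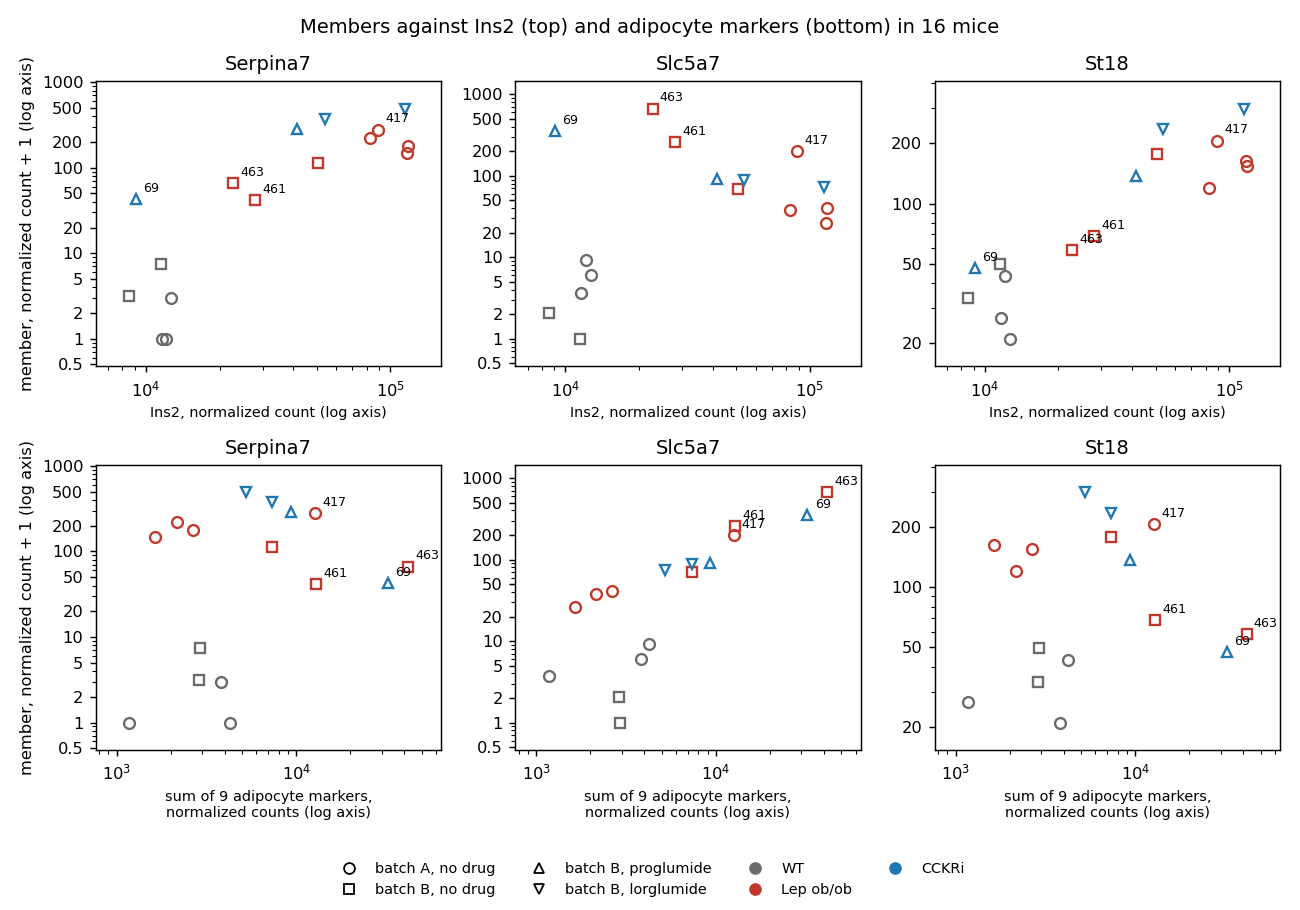
Each gene (normalized count plus 1) against Ins2 in the upper row and against the sum of 9 adipocyte markers in the lower row, on log axes, 1 symbol per mouse, with mice 417, 461, 463 and 69 labelled. Among obese mice of both batches together, Serpina7 and St18 rise with Ins2. Slc5a7 falls with Ins2 and rises with the adipocyte sum from 25.4 to 666 normalized counts.

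The genes whose log2 CPM over the 16 mice was most like that of each gene were then named, among 10864 other genes with a mean log2 CPM of at least 1. For Serpina7 these were Tceal3 (r = 0.98), Tmem27 (0.97), which encodes collectrin, Snap25 (0.97), part of the machinery of vesicle release, Scg5 (0.97), a chaperone of prohormone convertase, and Iapp (0.97), the islet amyloid peptide. Ins2 was at place 139 in this order with r = 0.85 and Adipoq, the adipocyte hormone adiponectin, at 1556 with r = 0.31. St18 was most like Faxc (0.97), Nipal1 (0.96), Scg5 (0.96), the islet transcription factor gene Pax6 (0.96) and Ppy (0.96), which encodes pancreatic polypeptide. Ins2 was at place 82 for St18 (r = 0.90) and Adipoq at 3337 (r = 0.10).

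Slc5a7 was most like Npr3 (r = 0.99), the clearance receptor of natriuretic peptides, Mest (0.98), Lep (0.98) and Oxtr (0.98), the oxytocin receptor. Adipoq was at place 115 with r = 0.84 and Ins2 at 1946 with r = 0.40. Lep encodes leptin and is transcribed mainly by adipocytes, also from the ob allele. These correlations hold the step from lean to obese, which the choice of genes used, and the 16 libraries are their only points.

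After the mean of each group and batch was taken off, the deviations of Serpina7 were most like those of Tmem27 (r = 0.92), Cdhr1 (0.92), Pgrmc1 (0.91), Sst (0.91), the somatostatin gene of delta cells, and Nudt2 (0.90). Those of St18 were most like Faxc (0.95), Hmgn3 (0.95), Mdm1 (0.94), Pax6 (0.93) and Pyy (0.92), which encodes peptide YY. Ins2 stood at place 34 for Serpina7 (r = 0.85) and 31 for St18 (r = 0.88). For Slc5a7 they were Maml2 (0.98), Phlda3 (0.98), Mxra8 (0.98), Ccl9 (0.98) and Ehd3 (0.98), with Adipoq at place 67 (r = 0.95) and Ins2 at r = -0.67. Serpina7 and Slc5a7 had r = -0.45 to each other on this measure, and Serpina7 and St18 had 0.78.

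Other genes of thyroid hormone transport and action were measured beside Serpina7. Of 25 such genes 22 were tested, and for Lep ob/ob against WT 4 rose and 1 fell, or 18.2% and 4.55% of them against 5.93% and 3.14% of all genes, with a median log2 fold change of 0.06 against -0.02 over all genes. Ttr, which encodes the other thyroid hormone carrier transthyretin and is also abundant in islet alpha cells, rose by 1.55 (adjusted p = 0.0119). Slc16a10, a transporter of aromatic amino acids and thyroid hormone, rose by 2.06 (adjusted p = 8.7e-05), Dio1, the deiodinase that converts thyroxine to the active hormone, rose by 1.74 (adjusted p = 0.00176), and Klf9, a thyroid hormone responsive transcription factor, rose by 0.54 (adjusted p = 0.0313, all by edgeR). Slc7a8, another transporter, fell by 0.71 (adjusted p = 0.0115). In normalized counts, Dio1 stood at 70.6 ± 16.96 (SD, n = 5) for WT, 246 ± 103 (SD, n = 7) for untreated obese and 210 ± 112 (SD, n = 4) for CCKRi mice.

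For CCKRi against WT, 3 genes of this list rose (Ttr by 2.38, Slc16a10 by 2.18 and Dio1 by 2.11) and 2 fell (Slc7a8 by 1.17 and the receptor gene Thra by 0.80), when 4.22% of all genes were called higher and 1.35% lower. With only CCKRi and WT mice in the fit 1 was called higher and 1 lower, against 1.32% and 0.71% of all genes. In batch B alone none was called, when 0.0641% of all genes were called higher and 0.0285% lower. Ttr turned to -0.42 for Lep ob/ob against WT with Ins2 as a covariate. Hepatocyte markers are given beside Serpina7 because the liver is its main source in the body, and 1 of the 5 tested, Ttr, rose for Lep ob/ob against WT, when 5.93% of all genes were called higher (median of the 5 -0.10). In CCKRi mice 2 of the 5 rose against WT, Ttr and Tat (2.04), against 4.22% of all genes (median 0.70). Their part in the level of Serpina7 was not tested. The sum of 12 hepatocyte markers, which include Ttr, ranged from 288 to 1513 normalized counts for WT, from 441 to 1913 for untreated obese and from 419 to 2417 for CCKRi mice. The other 4 tested had log2 fold changes for Lep ob/ob against WT of -1.53 (Alb), -0.64 (Apoa2), -0.10 (Apob) and 1.42 (Tat), none past the test. Of the 24 other clade A serpins, 4 passed the filter on low counts (Serpina3c, Serpina3g, Serpina3n and Serpina10). None of these 4 was called for Lep ob/ob against WT by edgeR, with 2 at an unadjusted p under 0.05 against 23.8% of all genes, and 1 was called by DESeq2, which called 7.8% of all genes higher and 4.61% lower.

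Beside Slc5a7, 17 of 36 genes of choline and acetylcholine handling were tested. For Lep ob/ob against WT 3 rose, or 17.6% against 5.93% of all genes, and none fell, with a median of 0.25. Ache, the acetylcholine esterase, rose by 3.01 (adjusted p = 0.000673), from 4.31 ± 2.42 normalized counts (SD, n = 5) in WT to 38.5 ± 22.8 (SD, n = 7), and stood at 28.01 ± 10.99 (SD, n = 4) in CCKRi mice. The nicotinic receptor subunit Chrnb2 rose by 1.23 (adjusted p = 0.0366) and the muscarinic receptor Chrm1 by 1.09 (adjusted p = 0.0132, edgeR). Chrnb2 turned to -0.14 with Ins2 as a covariate, and without 1 mouse its call for Lep ob/ob against WT held in 8 of 16 fits. For CCKRi against WT, Ache rose by 3.48 (adjusted p = 0.00127) and Chrnb2 by 1.59 (adjusted p = 0.0344), the only 2 of the 17 called higher, against 4.22% of all genes. Neither was called when only CCKRi and WT mice were fitted (1.32% of all genes higher) or in batch B alone (0.0641% higher). Without 1 mouse the call of Chrnb2 held in 8 of 16 fits.

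Chat and Slc18a3, which also serve acetylcholine in cholinergic neurons, were nearly without reads in this RNA of whole pancreas. Chat, which makes acetylcholine, had 1 read in WT mice and 0 in all 11 obese mice, and Slc18a3, which loads it into vesicles, had 3, 9 and 2 reads over the WT, untreated obese and CCKRi mice. Slc5a7 had 15, 1595 and 687 reads over the same groups. The cell type that its reads came from was not tested. Of 13 neuron markers, 11 had normalized counts. Their sum ranged from 98.4 to 145 for WT, from 192 to 396 for untreated obese and from 131 to 352 for CCKRi mice. Of the 13 markers 6 were tested, and 2 of the 6 rose for Lep ob/ob against WT, when 5.93% of all genes were called higher. Of the other 12 members of the sodium-coupled SLC5 transporter family 4 were tested, and 1 of them, Slc5a8, fell by 1.08 (adjusted p = 0.0182), when 3.14% of all genes were called lower.

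Beside St18, 27 of 34 genes of the MYT family, its partners and islet transcription factors were tested, and 8 rose for Lep ob/ob against WT, or 29.6% against 5.93% of all genes, with none lower and a median of 0.51. The other MYT genes were among them. Myt1 rose by 1.71 (adjusted p = 0.0216), from 17.5 ± 10.9 normalized counts (SD, n = 5) to 59.1 ± 25.7 (SD, n = 7), and Myt1l rose by 1.29 (adjusted p = 0.0289), from 10.8 ± 2.45 to 28.1 ± 16.3. Insm1 (2.00), Rfx6 (1.98), Nkx6-1 (1.65) and Pax6 (1.64), all transcription factors of islet endocrine cells, also rose. In batch A alone 12 of 29 genes of the list were called higher, against 6.75% of all genes, with a median of 0.38. In batch B alone 0 of 28 were called, against 0.0214% of all genes higher, with a median of 0.10. With Ins2 as a covariate, 4 genes of the list were called higher and 3 lower, with a median of -0.18, when 14.8% of all genes were called higher and 11.1% lower in that fit. With the pan-endocrine mean 4 were higher and 4 lower, against 12.0% and 7.96% of all genes. Isl1 and Neurod1 of this list are also pan-endocrine markers.

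For CCKRi against WT, 8 genes of this list rose, led by Rfx6 (3.11), Insm1 (2.74), Pax6 (2.59) and Myt1l (2.47), with Myt1 at 2.22 (adjusted p = 0.0159), and Gata4 fell by 0.91, against 4.22% of all genes called higher and 1.35% lower. The number of calls depended on the model. It was 1 higher and 1 lower when only CCKRi and WT mice were fitted (1.32% and 0.71% of all genes). In batch B alone it was 0 (0.0641% and 0.0285% of all genes). With Ins2 held fixed 1 was higher and 2 lower (5.37% and 4.44%), and with pan-endocrine markers 1 and 1 (3.32% and 1.84%). By DESeq2 with batch there were 8 and 1 (5.09% and 2.7%) and without the batch term 5 and 1 (5.09% and 5.37%). With proglumide mice alone there were 1 and 0 (1.27% and 0.38%) and with lorglumide mice alone 10 and 0 (4.63% and 0.717%). Without the 4 mice high in adipocyte markers 12 were higher and 1 lower (6.31% and 3.33%). For CCKRi against Lep ob/ob, no gene of the 5 pathway lists was called by edgeR or DESeq2 with batch. At an unadjusted p under 0.05 there were 1 thyroid hormone, 0 clade A serpin, 3 choline, 0 SLC5 and 5 MYT and islet transcription factor genes by edgeR, when 14.3% of all genes lay under this value. Myt1 had a log2 fold change of 0.50 (adjusted p = 0.631) and Myt1l of 1.18 (adjusted p = 0.271) in this comparison.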

How the data were processed

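Total RNA of whole pancreas was made into poly(A) libraries that keep the strand. Per the labels and the submitters' processing notes, the authors used Trim Galore 0.6.7 with cutadapt 3.5 for trimming, STAR 2.7.9 for alignment to the mm10 genome, and DESeq2. The read counter, its strand setting and the annotation are not given in the sources used here. The authors deposited raw counts per gene symbol and a normalized signal, the count divided by 1 size factor per mouse. Raw counts were tested with edgeR 4.0.16 (R 4.3.3, filterByExpr, TMM, group and batch, all 16 mice, quasi-likelihood test, Benjamini-Hochberg over 13660 genes). Permutation tests and correlations used log2(normalized count + 1) or log2 ratios to Ins2, with 100000 permutations for 11 mice and all permutations for fewer (Python 3.11.15, scipy 1.17.1, numpy 2.4.6, pandas 2.3.3). The fit was tested on simulated data. Alternatives were DESeq2 1.42.0, no batch term, RLE, other filters, covariates, single batches or drugs and leaving out each mouse. Marker sums add normalized counts. The genes, lists and tests were chosen with earlier results of these data known. From each list, up to 4 called genes with the largest change per comparison are named, with Chat, Slc18a3, Ache, Myt1 and Myt1l whatever their values, and the 5 genes most like each gene, of which 1 is not reported here. Klf9, Thra, Gata4, Lep, Cfd and the hepatocyte markers were named after their values were seen. Each library is from 1 mouse, and p-values measure the spread between mice.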

Additional observations from a re-analysis of the deposited data

Results flagged for a closer look

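In 18 groups of 4 to 7 mice, the gap of the highest or lowest mouse to its neighbour was set against the range of the group on the log2 scale (Dixon's ratio), where chance passes the 95% limit in about 1 of 20 groups. The limit was passed in 2. Slc5a7 in CCKRi mouse 69 was at 352 normalized counts against 72.7 to 90.4 in the other 3 CCKRi mice (ratio 0.863), and this mouse also had the highest adipocyte sum of its group. Ins2 in WT mouse 59 was at 8549 against 11520 to 12670 in the other WT mice (ratio 0.759).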

How the results depend on the processing

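No paired analysis was possible because each mouse number belongs to 1 group only. Direction and side of the threshold were kept for Serpina7 in CCKRi against Lep ob/ob under all 30 alternatives (0 past the threshold). In CCKRi against WT, where the choice of genes bears on the call, batch B alone gave 6.20 with an adjusted p of 0.0784. For Lep ob/ob against WT, Serpina7 moved to 3.66 with Ins2, 2.95 with pan-endocrine markers, 4.13 in batch B and 7.91 in batch A, where 2 WT reads stand behind the value. Slc5a7 moved to 7.48, 7.75, 8.68 (1 WT read) and 3.87 under the same settings, to 3.76 with adipocyte markers (3.63 without Lep and Cfd) and to 3.54 without mice 417, 461, 463 and 69. St18 turned to -0.12 with Ins2 and -0.46 with pan-endocrine markers.

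Against Lep ob/ob, CCKRi gave Slc5a7 0.70 without the 4 mice high in adipocyte markers and 0.17 without mouse 463, and St18 -0.37 with proglumide mice alone. Against WT, Slc5a7 missed the threshold in batch B (7.64), with proglumide (4.92) or lorglumide (3.49) alone, and without each of mice 5489, 58, 59, 417, 461 and 69 (adjusted p 0.0502 to 0.125). St18 missed it with only the groups compared (2.17), Ins2 (0.30), batch B (2.17) and proglumide (1.61), and turned to -0.26 with pan-endocrine markers. The fits within 1 batch or 1 drug hold fewer mice, and in the others the cause was not tested.

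Leaving out each mouse in turn gave, for Lep ob/ob against WT, 5.70 to 7.03 for Serpina7, 4.66 to 6.05 for Slc5a7 and 1.78 to 2.19 for St18. For CCKRi against Lep ob/ob it gave 1.52 to 2.28, -1.72 to 0.17 and 0.24 to 0.95, and against WT 7.60 to 9.01, 3.55 to 5.10 and 2.21 to 2.93. Within batch B, Serpina7 per Ins2 differed by 1.13 to 1.62 without any 1 mouse, where no p under 0.05 is possible, and by 1.22 per pan-endocrine marker. Ins2 differed by -0.22 to 0.997.

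Genes called for Lep ob/ob against WT were 1239, or 798 without the batch term, 3547 with Ins2, 2734 with pan-endocrine markers and 8 in batch B. For CCKRi against Lep ob/ob they were 8, or 570 without batch, 104 by DESeq2, 5 with the 50 most counted genes left out, 3 with only the groups compared, 17 with Ins2, 14 with pan-endocrine markers, 2 in batch B, 0 with either drug alone (1382 proglumide and 2315 lorglumide genes at an unadjusted p under 0.05), 228 with adipocyte markers (221 without Lep and Cfd) and 0 to 9 without 1 mouse. For CCKRi against WT they were 761, or 1428 without batch, 277 with only the groups compared, 1340 with Ins2, 13 in batch B, 239 with proglumide, 2095 with adipocyte markers (2156 without Lep and Cfd) and 1316 without the 4 mice.

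In the obese mice, r without the 2 farthest mice was 0.52 (Ins2 with Serpina7), -0.64 (Ins2 with Slc5a7), 0.59 (Ins2 with St18), 0.80 (Serpina7 with St18) and -0.23 (Slc5a7 with St18). Without the 4 mice high in adipocyte markers it was -0.0055, -0.72, 0.17, 0.57 and 0.45, and 0.54 for Serpina7 with Slc5a7.

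Of the other named genes, those that turned with Ins2 held fixed for Lep ob/ob against WT were Ttr (-0.42), Chrnb2 (-0.14), Rfx6 (-0.25) and Nkx6-1 (-0.18). With pan-endocrine markers these were Ttr (-0.60), Chrnb2 (-0.45), Insm1 (-0.11), Rfx6 (-0.72), Myt1 (-0.14), Nkx6-1 (-0.50) and Myt1l (-0.11), and for CCKRi against WT Ttr (-0.19), Chrnb2 (-0.27) and Pax6 (-0.28). For CCKRi against Lep ob/ob, Ache turned to -0.47 without batch, and Myt1 to -0.043 with proglumide mice and -0.087 without the 4 mice. Without 1 mouse, the call for Lep ob/ob against WT held in 8 of 16 fits for Chrnb2, 10 for Myt1l, 10 for Rfx6 and 12 for Myt1.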
